A study of Citrus sinensis and Citrus x aurantiifolia and Citrus x latifolia with 53 samples.

Results

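The leaf response to lack of water was followed in Mexican lime grafted on the diploid line of Swingle citrumelo 4475, a combination written ML2x. The 7 libraries were those whose leaf count columns carry that combination, 4 of unirrigated trees and 3 of irrigated trees, out of 53 libraries in the series. The tested trees (WD, water deficit) stood without irrigation for 9 days, and the control trees (Ctrl) stayed irrigated. In both groups the leaves were those of the scion, the diploid Mexican lime, and the rootstock was the diploid citrumelo, which the labels describe as Citrus sinensis crossed with Poncirus trifoliata. Roots of these trees are therefore citrumelo and their leaves lime. The study asked how the ploidy of scion and rootstock bears on the response to lack of water. It held 28 trees in 4 combinations, with Mexican lime (ML) or the triploid Persian lime (PL) on a diploid (2x) or tetraploid (4x) rootstock, and 4 unirrigated and 3 irrigated trees in each. The trees had grown for 2 years in 40 L pots in a greenhouse, and each library was made from 1 µg of total RNA from 100 mg of frozen tissue powder. Libraries of a group came from separate trees, as far as the labels say.

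In a drying leaf the hormone abscisic acid accumulates, binds its receptors and releases kinases that phosphatases otherwise hold inactive. The kinases close the stomata and switch on genes for protective proteins such as dehydrins and for the synthesis of compatible solutes. Messages for light harvesting and carbon fixation are among the most abundant in an irrigated leaf, and in many plants they decline when photosynthesis is limited. The identifiers of the deposited tables (Ciclev numbers) are not paired with gene names in the files, and 0 of 24533 matched the reference table at hand, which is of sweet orange. These pathways, the markers of mesophyll, guard cells, phloem and epidermis, and the sequences of the genes were therefore not analysed here, and the label "leaf" was not checked against named markers. Genes are described instead by how many reads they took, by the tissue in which they were read in other trees, and by how they moved elsewhere in the series.

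The 4 water-deficit libraries held 20620763, 11739181, 4785434 and 28246404 counts, against 19974890, 26164408 and 14804525 counts in the 3 control libraries. WD 3 was thus the shallowest. Each tissue was checked by its own reads. From the controls of the other 3 combinations, 661 genes were called root-biased (at least 10 CPM in roots and 20 times the leaf level) and 545 leaf-biased by the same rule reversed. Only genes that passed the count filter in both tissues could enter. In those trees too the leaves were lime and the roots citrumelo, so tissue and genotype cannot be told apart in these lists. CPM is the count scaled to a common library total (TMM). Root-biased genes took 0.279, 1.22, 0.514 and 0.411% of the counts in the water-deficit leaves, against 0.114, 0.0984 and 0.0998% in the control leaves. In the ML2x root libraries they took 4.34% to 5.24% of the counts under water deficit and 7.88% to 8.73% in controls. Leaf-biased genes took 0.303% to 0.506% of the root counts under water deficit and 0.266% to 0.351% in controls, against at least 12.8% in every leaf library. WD 2 was the leaf library with the highest root-biased share. It also held 81 genes at 10 or more times the highest other library of its group, against 27 in WD 1, 6 in WD 3 and 0 in WD 4. Of those 81 genes, 30 were root-biased, and of the 27 in WD 1, 2 were. Beside these, 661 of the 19140 genes tested in leaves were root-biased. That list holds genes low in control leaves, where a few reads make a large ratio. Counts and genes that WD 2 bears on are given below also without it.

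Lack of water changed 1140 genes upward and 1024 genes downward among 19140 tested in ML2x leaves (edgeR quasi-likelihood F test, Benjamini-Hochberg adjusted p under 0.05). These are 5.96% and 5.35% of the genes tested, or 11.3% together. DESeq2 called 3316 genes (17.3%) and limma voom 7087 (37%). The balance of directions was not fixed: edgeR on the ML2x leaf libraries alone gave 1338 higher and 1793 lower, limma voom 3403 and 3684, and the fit without WD 4 627 and 231. The median log2 fold change of all genes was 0.07. Fitted changes exceeded 2-fold in 952 of the higher genes and 859 of the lower genes, and 8-fold in 290 and 201. Past 32-fold there were 111 higher and 41 lower genes, and 40 and 12 without WD 2. The median log2 fold change was 1.80 over the higher genes and -1.68 over the lower genes. No read fell in any control for 26 of the higher genes, and none in any water-deficit library for 16 of the lower genes. Set against a floor of 3 counts over the group, the 26 genes were at least 7.15-fold to 4568-fold higher (median bound 20.7-fold). Without WD 2 the mean of 2 of these genes fell below the floor, and the median bound over the 26 was 9.65-fold (highest 128-fold). The 16 genes were at least 2.97-fold to 29.2-fold lower (median bound 11.5-fold). Both list medians stayed at 1.80 and -1.68 with these genes at their bounds.

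More genes separated the groups without overlap than were called. Every water-deficit library lay above every control in 2852 genes, 14.9% of those tested, and below every control in 3309 genes, 17.3%. Among the called genes the same held for 1058 of the 1140 higher and 1016 of the 1024 lower. The water-deficit trees also varied more among themselves. Over 10997 genes with a mean of at least 10 CPM, the median SD of log2 CPM was 0.35 among the 4 water-deficit libraries and 0.173 among the 3 controls. The number of calls depended on single trees: it was 733 without WD 2, 964 without WD 3, 858 without WD 4 and 2977 without WD 1. Without a control it was 65 (Ctrl 1), 432 (Ctrl 2) or 158 (Ctrl 3). Of the called genes, 32 higher and 26 lower were called in all 7 of these fits.

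The genes that dominate the reads of an irrigated leaf took a smaller share under water deficit. The 10 genes with the most reads over all 11 leaf controls took 5.91, 4.51, 3.96 and 3.30% of the counts in the water-deficit libraries, against 11.9, 10.6 and 12.1% in the controls. The means were 4.42 ± 1.11% (SD, n = 4) and 11.5 ± 0.792% (SD, n = 3), a difference of -7.10 percentage points. The groups did not overlap, and the exact permutation test gave p = 0.0571 (two-sided), the smallest that 4 against 3 libraries allow. The 11 controls include the 3 compared here, so the choice of genes favours a lower share under water deficit. With 10 genes chosen on water-deficit libraries of the other combinations, the difference was -7.33 percentage points (exact permutation test, two-sided p = 0.0571). Counts were spread over more genes under water deficit: 1052, 993, 1111 and 1287 genes held 50% of the counts there, against 594, 749 and 602 genes in the controls. Of the 10 genes with the most reads in controls, 9 had a negative log2 fold change (median -1.44), and 3 were called lower and 0 higher. Of the 50 with most reads, 42 were negative (median -1.43), with 16 called lower and 0 higher. For comparison, 5.35% of all genes were called lower.

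**Figure D1:**
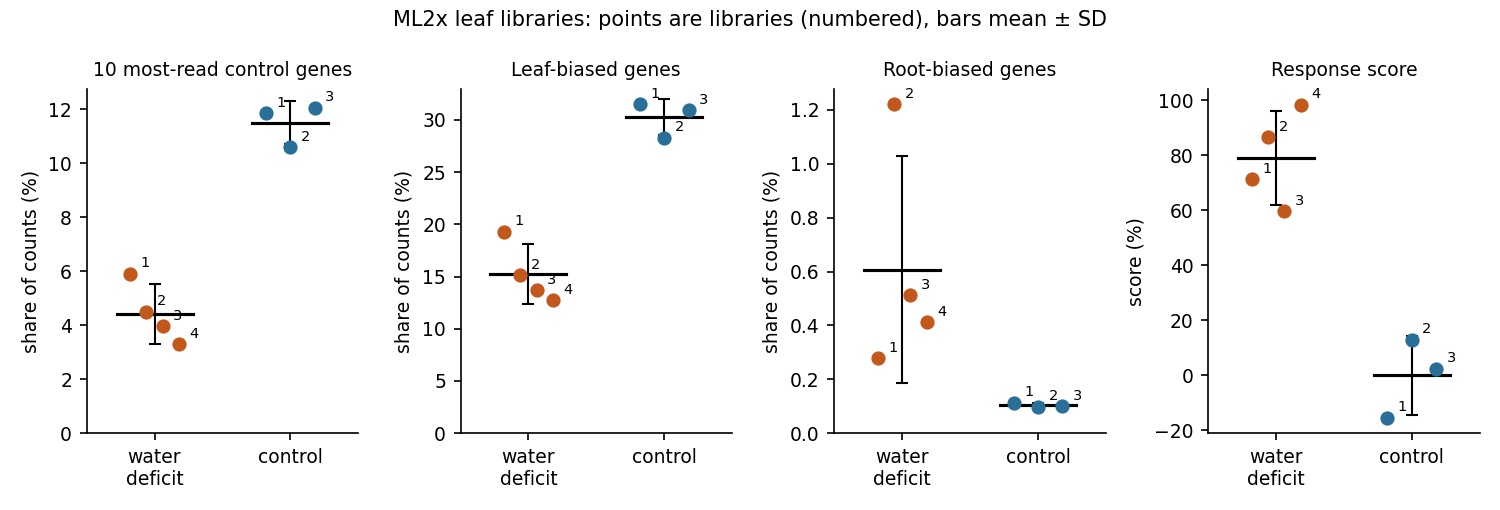
Each point is 1 ML2x leaf library with its number, water deficit left and control right, the wide bar is the mean and the whisker 1 SD. The panels show the share of counts (%) of the 10 most-read control genes, of leaf-biased genes and of root-biased genes, and the response score (%), and the groups do not overlap in any of them.

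Single genes show this loss at its larger end. The log2 fold changes of the 10 most-read genes ran from -2.83 to 0.89, with a median of -1.44. Those named here and the pair below were singled out after their values were seen, as the called genes with the most reads in each direction. The pair of lower genes ranked 2 and 4 by mean CPM over the leaf controls. Ciclev10031443m.g had 10570, 7281, 5183 and 5545 CPM in the water-deficit libraries, against 26010, 26420 and 27390 CPM in the controls. It was lower in all 4, least so in WD 1, and its log2 fold change was -1.90 ± 0.61 (SE; edgeR adjusted p = 0.047). This call was kept in 1 of 7 fits that left out a library (adjusted p 0.038 to 0.12). Ciclev10010036m.g had 2497, 1682, 1783 and 1787 CPM under water deficit, against 14350, 12140 and 14810 CPM in the controls. Its log2 fold change was -2.83 ± 0.55 (edgeR adjusted p = 0.0077), and it stayed called in 7 of 7 such fits.

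The called genes with the most reads among those that rose did so unevenly, and they ranked only 3109 and 601 in the leaf controls. Ciclev10012978m.g had 497, 18680, 4900 and 2143 CPM in the water-deficit libraries, against 10.9, 15.6 and 16.0 CPM in the controls. The lowest unirrigated tree was far above the highest irrigated tree, and WD 2 was far above the other unirrigated trees. The log2 fold change was 8.85 ± 1.76 (edgeR adjusted p = 0.0082). It ran from 7.47 to 9.22 when single libraries were left out, and was called in 5 of 7 fits. In the other combinations the same gene had log2 fold changes of 4.05 (ML4x, adjusted p = 0.14), 2.46 (PL2x, adjusted p = 0.35) and 5.98 (PL4x, adjusted p = 0.0077) in edgeR. In the ML2x roots its value was 6.08 (edgeR adjusted p = 0.00067). Ciclev10024637m.g had 637, 2728, 2574 and 1256 CPM under water deficit, against 228, 209 and 188 CPM in the controls. Its groups did not overlap, and its log2 fold change was 3.11 ± 0.70 (edgeR adjusted p = 0.014; called in 4 of 7 fits).

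Calls depended on read level in a way that differed between directions. Among 83 genes with a mean of 1000 CPM or more, 19 were lower (22.9%) and 4 higher (4.82%), and their median log2 fold change was -0.98. From 100 to 1000 CPM, 161 of 1789 genes were lower (9.00%) and 152 higher (8.50%), with a median of 0.05. From 10 to 100 CPM the order turned, with 590 of 9080 higher (6.50%) and 425 lower (4.68%). Genes from 1 to 10 CPM split into 326 higher and 302 lower of 5403. Under 1 CPM the lower genes led again, with 117 of 2785 (4.20%) against 68 higher (2.44%). Together the 1140 higher genes took 7.62, 13.7, 12.1 and 10.6% of the counts under water deficit, against 2.61, 2.87 and 2.63% in controls. The 1024 lower genes took 8.77, 6.23, 5.75 and 5.88% under water deficit, against 18.8, 16.9 and 18.0% in controls. These shares describe genes chosen on the same libraries and carry no test. As counts of a library sum to a fixed total, they show unequal change and not the amount of RNA per cell. In bulk leaves, fewer cells of a type and less RNA per cell cannot be told apart.

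**Figure D2:**
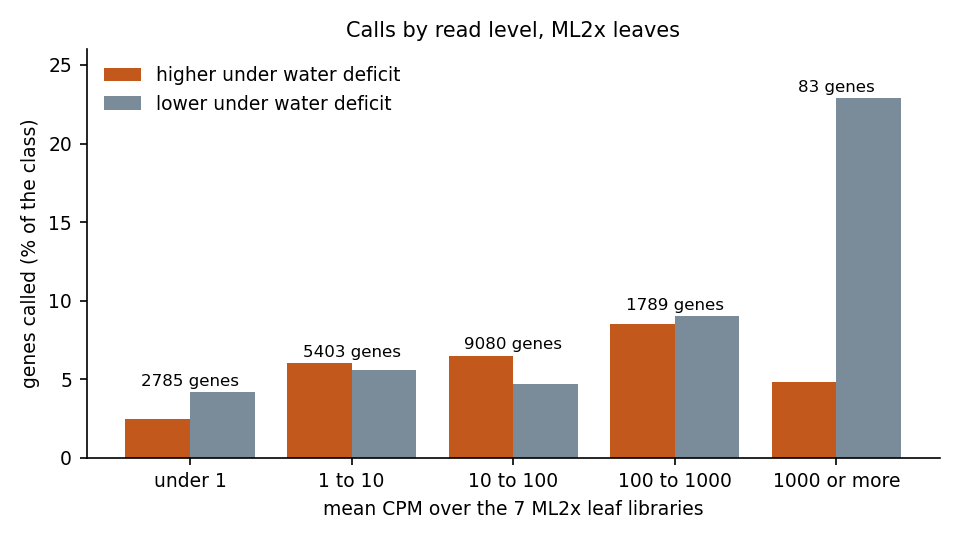
Bars give the share of genes (%) called higher (left) or lower (right) under water deficit in each class of mean CPM over the 7 ML2x leaf libraries. In the class of 1000 CPM or more, 22.9% of 83 genes were lower and 4.82% higher.

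The number of genes detected did not separate the groups. At least 1 read fell on 20406, 19676, 18263 and 20606 genes under water deficit, against 20407, 20590 and 19762 genes in controls. At the depth of the shallowest library, 4785434 reads, the expected numbers were 19032, 18855, 18263 and 18858 against 18956, 18908 and 18656. The difference of the means was -88.1 genes (exact permutation test, two-sided p = 0.857). It was 19.6 genes without WD 3 and 138 genes when 10 reads were required, so its direction was not settled.

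Genes read more in lime leaves than in citrumelo roots lost ground in unirrigated leaves. Leaf-biased genes took 19.3, 15.1, 13.7 and 12.8% of the counts under water deficit, against 31.5, 28.3 and 31.0% in controls. Of these 545 genes, 123 were lower and 19 higher, and their median log2 fold change was -0.88, beside 5.35% lower, 5.96% higher and a median of 0.07 over all genes. The called root-biased genes went mostly the other way. Of 661, 122 were higher and 29 lower, with a median of 0.42, beside the same shares over all genes. The list did not move as a whole: 59.0% had a positive fold change, against 54.4% of all genes. In WD 1 to WD 4, 60.5, 56.1, 51.3 and 52.8% of the list lay above the control mean. Over all genes these shares were 51.6, 50.9, 47.3 and 53.5%. A gene rare in control leaves can pass the leaf count filter through water-deficit libraries that hold it. The list tested fell to 652 genes without WD 3 and 649 without WD 2. Part of the upward count can thus follow from the filter, and how much was not tested. Under another scaling of the libraries (DESeq2's size factors) both directions held, with medians of -0.90 and 0.41. Without WD 2 the root-biased genes gave 51 higher and 5 lower of 649, with a median of 0.28, when 477 genes of all 19059 were higher and 256 lower. The leaf-biased genes then gave 7 higher and 18 lower, with a median of -0.89. Without WD 4 they gave 10 higher and 13 lower, and without Ctrl 1, Ctrl 2 or Ctrl 3 only 2, 19 and 5 were lower. Without those controls 9, 25 and 20 root-biased genes were higher. The medians of the leaf-biased genes stayed between -1.01 and -0.81 over the 7 such fits, and those of the root-biased genes between 0.28 and 0.54. The share of root-biased genes in WD 2 (1.22%) moved with the first of these counts, and its part in them was not tested. The other 3 unirrigated trees also lay above every control in that share, at 0.279% to 0.514%.

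The genes with the steepest fitted increases were read mainly in WD 2. Among called genes with a mean of at least 1 CPM and groups that did not overlap, Ciclev10019970m.g had 0.215, 55.5, 0.362 and 0.0886 CPM in the water-deficit libraries and no read in the 3 controls. The counts behind this were 5, 675, 2 and 3. With the floor of 3 counts over the controls it was at least 279-fold higher (edgeR adjusted p = 0.023). Without WD 2 the bound was 4.41-fold and the adjusted p 0.16. The call was also lost without each control (adjusted p 0.074 to 0.089) and kept in 3 of 7 such fits. It was not called in ML4x, PL2x or PL4x leaves (edgeR adjusted p = 0.59, 0.68 and 0.32). In ML2x roots the gene had a mean of 4.375 CPM under water deficit and 5.683 CPM in controls (edgeR adjusted p = 0.83). Where its reads in WD 2 came from was not tested. Ciclev10029877m.g had 0.301, 47.8, 1.81 and 1.92 CPM under water deficit and no read in controls. It was at least 258-fold higher (edgeR adjusted p = 0.026), and at least 26.7-fold without WD 2 (adjusted p = 0.075). Its call too was lost without each control (adjusted p 0.079 to 0.096) and kept in 3 of 7 fits. Its reads in WD 3 and WD 4 were few but above the controls. In PL4x leaves it also rose, with an edgeR adjusted p of 0.025. It was not called in ML4x or PL2x leaves (edgeR adjusted p = 0.36 and 0.84).

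The steepest decreases were chosen among genes whose groups did not overlap, so all 4 unirrigated trees lay below the controls by that rule. A steep fall of a group mean also needs low values in every library, whereas 1 library can make a steep rise. Ciclev10015814m.g had 2.41, 0.411, 0 and 0.0591 CPM under water deficit, against 154, 57.3 and 51.6 CPM in controls. Its log2 fold change was -6.71 ± 2.03 (SE; edgeR adjusted p = 0.038). It kept its call in 1 of 7 fits that left out a library, the one without WD 1, where the value was -9.19, and otherwise had an adjusted p of 0.07 to 0.11. Ciclev10003620m.g had 1.03, 0, 0 and 0 CPM under water deficit, against 39.4, 26.6 and 27.0 CPM in controls. Its log2 fold change was -6.58 ± 1.60 (edgeR adjusted p = 0.018), and it was called in 4 of 7 such fits. The call was lost without Ctrl 1 (adjusted p = 0.066), Ctrl 3 (0.057) or WD 2 (0.05). Without WD 1 no water-deficit read was left, and the gene was at least 533-fold lower. The residual reads of both genes came mostly or wholly from WD 1. The second gene also fell in PL4x leaves, at -5.01 (edgeR adjusted p = 0.013), and in ML2x roots, at -3.20 (edgeR adjusted p = 0.014). It was not called in ML4x or PL2x leaves, at -3.13 and -2.14 (edgeR adjusted p = 0.2 and 0.39). Ciclev10015814m.g was not called in ML4x, PL2x or PL4x leaves. Its values there were -2.66, -1.23 and -2.26 (edgeR adjusted p = 0.38, 0.73 and 0.31).

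**Figure D3:**
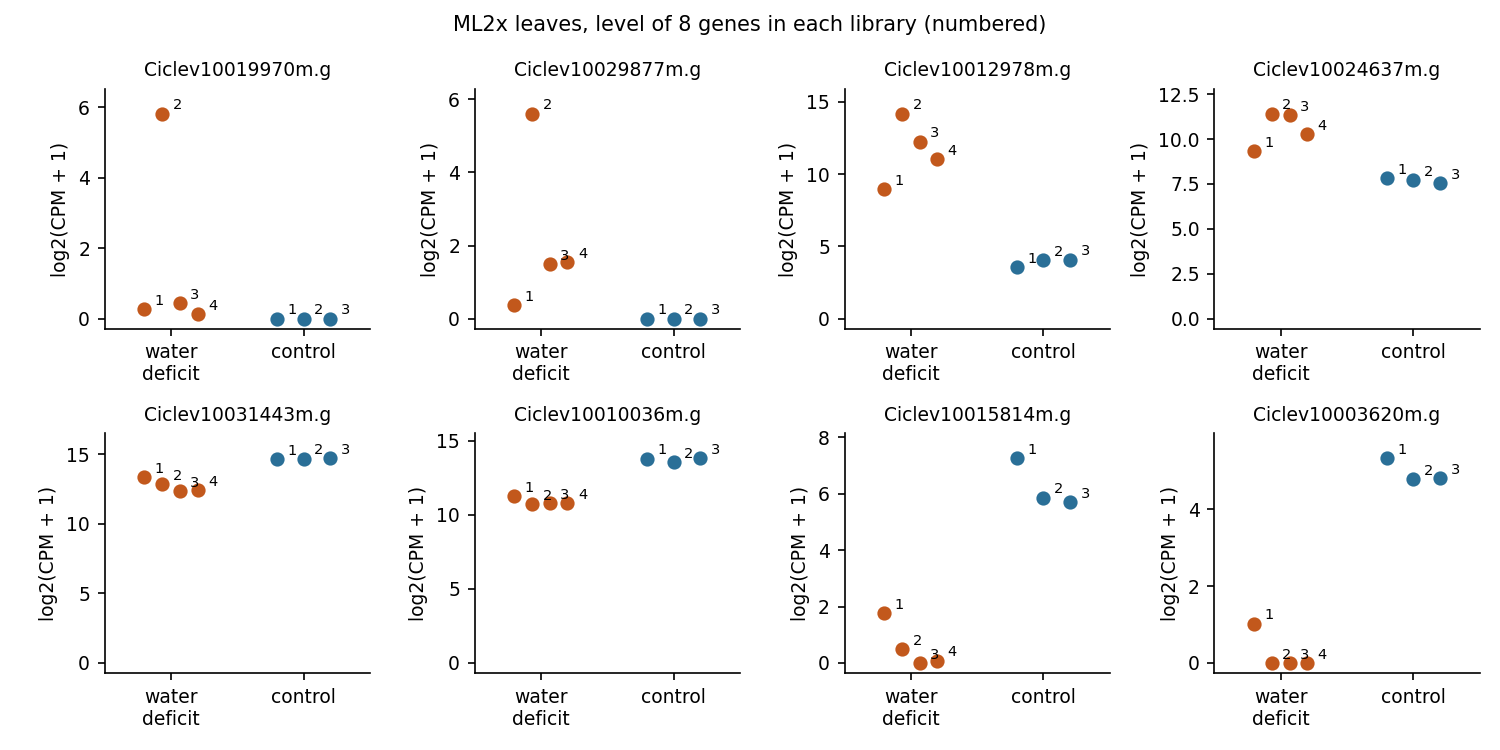
Each point is 1 ML2x leaf library (numbered), with water deficit left and control right, on a log2(CPM + 1) axis. The top row holds the 4 genes that were higher, of which the first pair is read mainly in WD 2. The bottom row holds the 4 that were lower, where every unirrigated tree lies below every irrigated tree. The first pair of the top row and the last pair of the bottom row were chosen for groups without overlap.

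The 4 trees did not rank alike by every measure of the response. WD 2 was the highest of the 4 in 481 of the 1140 higher genes, WD 3 in 455, WD 4 in 152 and WD 1 in 52. WD 2 alone held over 75% of the summed CPM of the 4 trees in 59 of the higher genes, WD 3 in 1 and the other pair in 0. Among the 1024 lower genes WD 3 was the lowest in 393, WD 2 in 294, WD 4 in 289 and WD 1 in 48. WD 1 was the highest of the 4 in 691 of those lower genes. These tallies use genes called on the same libraries. WD 3 was the shallowest of the 4, counting noise makes a shallow library extreme more often, and the part of depth was not tested. Genes chosen in other trees gave another order. Over 3170 genes that rose in PL4x leaves, the median log2 ratio to the ML2x control mean was 0.46, 0.65, 0.58 and 0.66 in WD 1 to WD 4. Over 2347 genes that fell in PL4x leaves it was -0.67, -0.86, -0.95 and -1.10.

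A response score gave the same trees 1 value each. It projects a library onto the mean response of ML4x, PL2x and PL4x leaves, with the ML2x control mean at 0% and that mean response at 100%. The scores were 71.4, 86.6, 59.6 and 98.3% under water deficit, against -15.4, 12.9 and 2.45% in controls. WD 3, often the extreme tree in the tallies above, thus had the lowest score of the 4. The means were 79.0 ± 17.0% (SD, n = 4) and 0 ± 14.3% (SD, n = 3). The groups did not overlap, and the exact permutation p of 0.0571 (two-sided) is the smallest possible here. Along the direction of ML4x alone the difference was 98.3%, and along that of PL4x alone 61.7%.

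Most genes called in ML2x leaves had a fold change of the same sign in the other combinations, which have their own controls. Of the 1140 higher genes, 791 were also called higher in PL4x leaves, where 16.6% of all genes were, and 51 in ML4x leaves, where 0.298% were. None was called in PL2x leaves, where edgeR called 0% of genes, with 4493 of 19140 at an unadjusted p under 0.05. PL2x leaves had 5 libraries against 7 in the others. Fold changes were positive for 96.5% of the 1140 genes in ML4x (median 0.93), 81.6% in PL2x (median 0.64) and 96.5% in PL4x (median 1.56). Over all genes 53.2%, 52.9% and 55.3% were positive, with medians of 0.05, 0.06 and 0.12. Of the 1024 lower genes, 644 were called lower in PL4x (12.3% of all genes) and 24 in ML4x (0.256% of all genes). Their medians were -0.94 in ML4x, -0.59 in PL2x and -1.43 in PL4x, and 98.5%, 85.4% and 97.4% were negative.

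The lists were of unequal size. The 791 shared higher genes were 69.4% of the ML2x list and 25.0% of the PL4x list, and the 644 shared lower genes 62.9% and 27.4%. The 51 genes shared with ML4x were 4.47% of the ML2x list and 89.5% of the ML4x list. Read the other way, the 3170 genes higher in PL4x were positive in ML2x leaves in 94.8% of cases (median 0.60). The 2347 genes lower in PL4x were negative there in 93.0% (median -0.85).

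**Figure D4:**
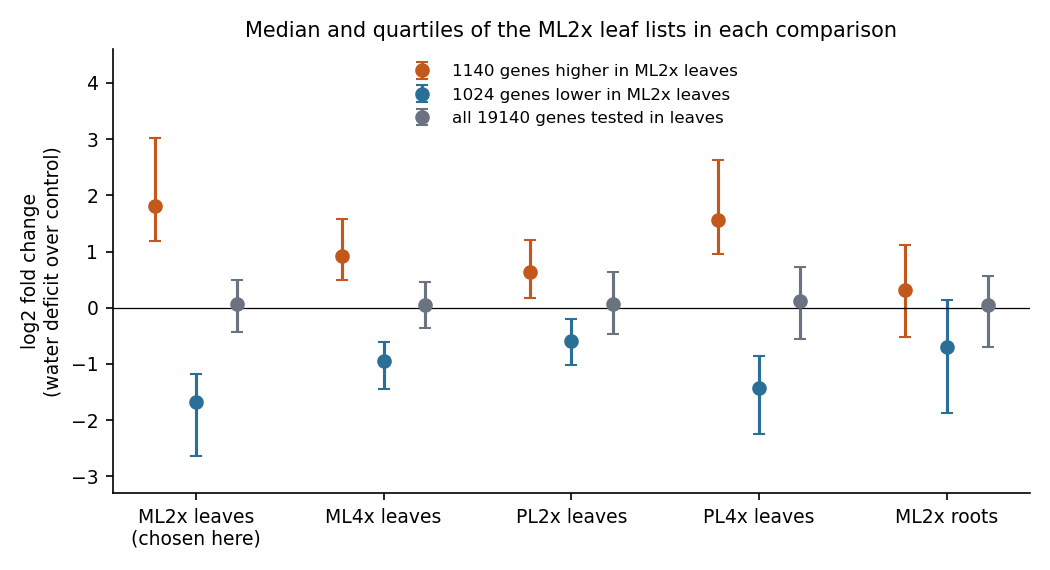
Points are medians and whiskers the quartiles of the log2 fold change (water deficit over control) of the genes called higher (orange) or lower (blue) in ML2x leaves, and of all genes tested (grey), in 4 leaf comparisons and ML2x roots. The ML2x leaf values chose the lists; the medians keep their sign in the other 4 comparisons and lie nearest to 0 for the higher list in ML2x roots, at 0.32.

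In edgeR no gene was called for a response in ML2x leaves that differed from another combination. The test of the difference in response called 0% of genes against ML4x, with 623 genes at an unadjusted p under 0.05, and 0 genes by DESeq2 or limma voom. Against PL2x edgeR called 0% (3200 unadjusted), DESeq2 71 and limma voom 2502 genes. Against PL4x edgeR called 0% (1586 unadjusted), DESeq2 77 and limma voom 663. A missed threshold does not show that the responses were alike. Between the irrigated trees of ML2x and ML4x, which share the scion, 0 of 19140 genes were called by edgeR and 166 had an unadjusted p under 0.05.

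Leaves and roots of the same combination responded differently in many genes. A joint test of 14 ML2x libraries called 2710 of 20350 genes for the leaf response minus the root response, 13.3% of those tested. The leaf response was higher in 1784 genes (8.77%) and lower in 926 (4.55%), beside a median difference of 0.15 over all genes. By another scaling that median was 0.07 and the numbers were 1631 and 1056. The test treated the 14 libraries as independent, and the labels do not say whether leaves and roots came from the same trees. With trees as blocks, taking equal replicate numbers as the same tree, the numbers were 1403 and 640. In the 1784 genes the median log2 fold change was 0.97 in leaves and -1.58 in roots. In the joint fit 624 of them were called higher in leaves and 1227 lower in roots. In the 926 genes the medians were -0.69 in leaves and 0.99 in roots, with 403 called lower in leaves and 573 higher in roots. Both lists were chosen on the difference itself, so medians that lie apart follow from the choice and carry no test. Leaf and root also differ in genotype in grafted trees, and tissue and genotype cannot be told apart in this difference.

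Opposite calls were a small class. Of the 1140 genes higher in leaves, 1111 were tested in roots, with 364 higher there and 172 lower. Of the 1024 genes lower in leaves, 952 were tested in roots, with 384 lower there and 66 higher. Beside these, 3258 of the 18179 genes tested in both tissues were higher in roots and 3655 lower. The 172 genes that rose in leaves and fell in roots had medians of 2.22 in leaves and -1.74 in roots. The 66 that fell in leaves and rose in roots had medians of -1.19 and 1.10. Both classes were chosen by these calls, so their difference carries no test here. Genes that were higher in both tissues numbered 364, and by the test of the difference the leaf response was above the root response in 36 of them and below it in 7. The root-biased list is limited by the leaf count filter, as described above. The leaf response was above the root response in 219 of the 661 root-biased genes (33.1%) and below it in 10 (1.51%), beside 8.77% and 4.55% of all genes. Of the 545 leaf-biased genes it was above in 16 (2.94%) and below in 158 (29.0%). Without leaf WD 2 these were 195 and 9 root-biased and 14 and 145 leaf-biased genes, when 7.89% and 4.15% of all genes were called. In ML2x roots, root-biased genes were lower in 353 and higher in 53 of 661 cases, and leaf-biased genes higher in 92 and lower in 34 of 545.

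**Figure D5:**
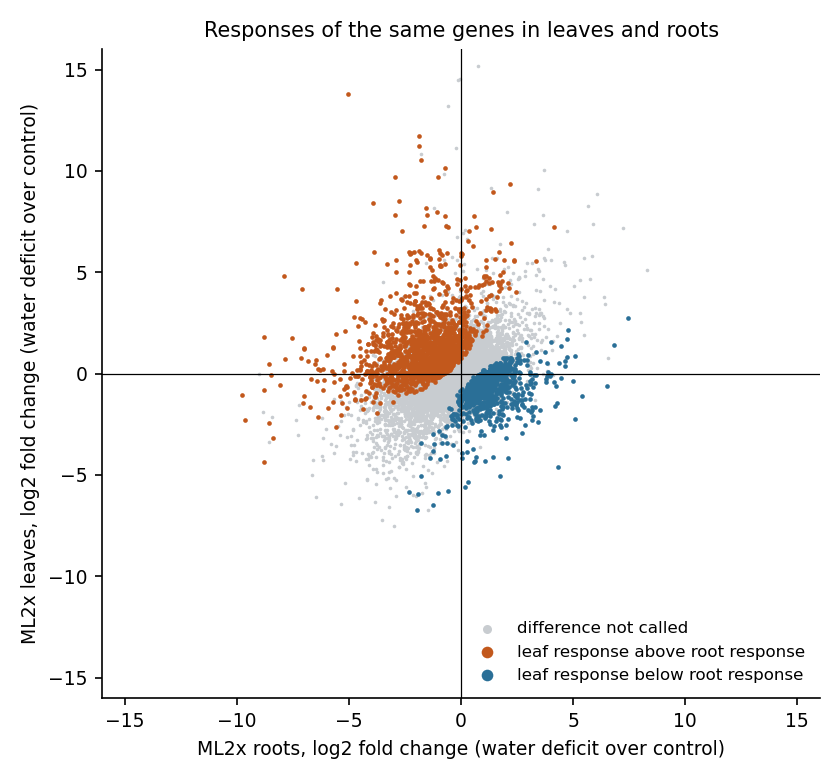
Each point is 1 gene, by its log2 fold change (water deficit over control) in ML2x leaves (vertical) and ML2x roots (horizontal). Coloured genes passed the test of the difference: orange where the leaf response was above the root response, blue where it was below.

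The steepest differences in favour of roots did not rest on 1 library. Ciclev10023018m.g had 8.73, 0.575, 1.99 and 1.39 CPM in water-deficit leaves, against 95.6, 71.2 and 76.4 CPM in control leaves. In roots it had 2.13, 4.29, 2.52 and 1.02 CPM under water deficit, against 0.0801, 0.0962 and 0.187 CPM in controls. It fell in leaves and rose in roots, without overlap of the groups in either, and the difference was -8.87 ± 1.11 on the log2 scale (SE; edgeR adjusted p = 0.00053). Ciclev10031266m.g had 0.516, 0.657, 0.181 and 0.591 CPM in water-deficit leaves, against 1.77, 2.38 and 3.29 CPM in control leaves. In roots it had 0.403, 0.148, 0.700 and 5.12 CPM under water deficit, against 0, 0.0481 and 0 CPM in controls. The root counts behind this were 7, 1, 10 and 5, against 0, 1 and 0. The root controls thus lay below the floor of 3 counts over the group. The fitted difference of this gene was -7.03 ± 1.40 (edgeR adjusted p = 0.0057), which is not a bound. Both were called in 14 of 14 fits that left out a library.

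The steepest differences in favour of leaves had their leaf reads in WD 2. Ciclev10019773m.g had 0, 354.9, 0 and 0.0591 CPM in water-deficit leaves and no read in control leaves. In roots it had 1.67, 0.148, 0.420 and 0 CPM under water deficit, against 21.9, 24.6 and 32.8 CPM in controls. The edgeR adjusted p of the difference was 0.027. Without leaf WD 2 it was 0.068 and the fitted difference 7.67, and the call was kept in 5 of 14 fits that left out a library and lost without any leaf or root control. Ciclev10022136m.g had 0, 85.1, 0 and 0 CPM in water-deficit leaves and no read in control leaves. In roots it had 1.21, 0.740, 2.73 and 1.02 CPM under water deficit, against 7.61, 2.21 and 7.23 CPM in controls. Its edgeR adjusted p was 0.049, and 1 without leaf WD 2, and it was called in 3 of 14 such fits. In both genes a single leaf library held all or nearly all of the leaf reads, while the root controls held them in every library.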

How the data were processed

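Leaf and root RNA of grafted citrus trees was sequenced from stranded mRNA libraries, per the labels' protocols. The authors deposited raw read counts per gene, whole numbers that were not normalised, for 24533 identifiers. The submitters' processing notes name Trimmomatic for trimming and HTSeq for counting. Not given in the sources used here are the aligner, the build, tool versions and the strand setting. Reads of near-identical copies, or of lime and citrumelo that differ from the reference, can be lost or shared between genes.

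Genes were filtered by filterByExpr and totals scaled by TMM. The 26 leaf libraries in 8 groups, the 27 root libraries in 8 groups and the 14 ML2x libraries in 4 groups were fitted separately in edgeR 4.0.16 (R 4.3.3) with robust quasi-likelihood F tests, which kept 19140, 20452 and 20350 genes. The common biological coefficient of variation was 0.38, 0.371 and 0.344. Genes were called at a Benjamini-Hochberg adjusted p under 0.05. SE is the log2 fold change over the root of F. Single values per library were compared by exact permutation. DESeq2 1.42.0 and limma 3.58.1 (voom with quality weights), other filters and scalings, a replicate block and leaving out each library were the alternatives. No pair of ML2x leaf libraries within a group held the same counts: their chi-square per gene was at least 15.6, where sampling noise gives about 1. Pairs of root libraries were not checked in this way. Depth ran from 4785434 to 28246404 counts in ML2x leaves and from 1118899 to 20813604 in ML2x roots, and floors of 3 counts cover counting error only.

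The libraries, lists and rules were chosen with earlier results of these data known. The identifiers named for a test were the 2 highest and 2 lowest log2 fold changes among called genes with a mean of at least 1 CPM, with no overlap of the groups for water deficit; the most-read called genes and the tissue-biased lists were added later. A prior count of 1 was added for the response score, and an offset of 0.05 CPM for the tissue ratios.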

Additional observations from a re-analysis of the deposited data

Results flagged for a closer look

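In 10 of 31 sets of 4 libraries a single library lay far from the other 3, where chance gives about 1 in 20. That rate is not a chance value for these sets, since they share the same 4 libraries and many hold genes picked for folds that 1 library set. Sets of 3 libraries were not examined in this way. WD 2 was the far library in 5 of the 10. It held 30 root-biased genes at 10 or more times the highest other water-deficit library, against 2, 0 and 0 in WD 1, WD 3 and WD 4. These 30 were among 81 genes of WD 2 at such a ratio, and 661 of the 19140 genes tested in leaves were root-biased. WD 2 was also the far library for Ciclev10019970m.g (55.47 CPM), Ciclev10029877m.g (47.82 CPM), Ciclev10019773m.g (354.9 CPM) and Ciclev10022136m.g (85.13 CPM).

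WD 1 was the far library in the share of counts of genes called lower, at 8.77%, against 5.75% to 6.23% in the other 3. It was likewise highest for Ciclev10003620m.g (1.032 CPM), Ciclev10015814m.g (2.408 CPM) and Ciclev10010036m.g (2497 CPM). Root WD 4, the shallowest ML2x root library, was highest for Ciclev10031266m.g, at 5.118 CPM.

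The response to water deficit differed between ML2x leaves and roots in 2710 genes by the test of the difference itself. Among the named genes the fitted differences were 18.77 for Ciclev10019773m.g, 13.57 for Ciclev10022136m.g, -8.87 for Ciclev10023018m.g and -7.03 for Ciclev10031266m.g on the log2 scale. The values of the first pair depend on the prior count, since no control leaf held a read, and are not bounds. That of Ciclev10031266m.g rests on 1 read over the 3 root controls and is not a bound either.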

How the results depend on the processing

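The number of genes called for water deficit in ML2x leaves was 2164 and stayed within 1.5 times of that with DESeq2's size factors (2151), no filter (1768), a filter of 1 CPM (2161) and only the groups compared (3131). DESeq2 gave 3316, limma voom 7087, and leaving out single libraries 65 (without Ctrl 1) to 2977 (without WD 1). For the leaf minus root response, with 2710 calls, limma voom gave 5792 and left-out libraries 1606 (leaf Ctrl 3) to 3439 (root WD 1). The 0 calls of the difference from PL2x became 71 by DESeq2, 2502 by limma voom and at most 3 with a library left out (lowest 0). Those of the difference from PL4x became 77, 663 and at most 219, the last without PL4x WD 2. The cause of these shifts was not tested. The score difference of 79.0% was 98.3% on the ML4x axis and 61.7% on the PL4x axis, and 71.3% to 85.5% with single libraries left out. The share of the most-read genes fell by 11.6 percentage points for 50 genes. The difference in detected genes reversed to 138 genes at 10 reads and to 19.6 without WD 3, and without single libraries it ran from -181 to 19.6.

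Whether replicate numbers pair the libraries was not settled. Same-numbered unirrigated and irrigated leaves correlated at -0.112, -0.061 and -0.0831, and leaves and roots of the same number at -0.197 to 0.239. Correlations between unlike numbers were not set beside these. With the number as a replicate block 822 genes were called in leaves (485 higher, 337 lower), and with tree as a block 2043 for leaf minus root. With the number as a block Ciclev10019970m.g, Ciclev10029877m.g and Ciclev10015814m.g had adjusted p of 0.069, 0.077 and 0.08.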
